A study of Mus musculus with 50 samples.

Results

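The 36 genes described here carry glucose into the heart muscle cell, split it to pyruvate, pass pyruvate on to lactate or to the mitochondrion, and store glucose as glycogen. They comprise 2 glucose transporters, 18 genes of glycolysis and its control, 2 lactate dehydrogenase subunits, 6 genes of the pyruvate dehydrogenase step and 8 genes of glycogen. They were picked by gene symbol, with no measured value in the rule. Of the 35717 rows of the table, 37 carry one of these symbols, because Aldoa has a second row with a mean of 0.16 FPKM that was too low to test. All 36 symbols had a row among the 11628 genes tested, namely those with an FPKM (fragments scaled to transcript length and to library size) of at least 1 in at least 5 libraries.

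RNA came from the left ventricle of 50 mice aged 40 weeks on a C57BL6J background, which carried a LARP6 transgene (Tg) or were WT littermates. LARP6 is an RNA-binding protein known for binding collagen mRNAs. Pumps delivered Ang II, a hormone that raises blood pressure, at 1000 ng/kg/min, or sterile saline, and tissue was taken after 21 days. This gave 13 Tg Ang II hearts (7 female, 6 male), 12 Tg saline hearts (6 female, 6 male), 14 WT Ang II hearts (7 female, 7 male) and 11 WT saline hearts (5 female, 6 male). The series title places the overexpression in cardiomyocytes, and the promoter that drives the transgene and the number of founder lines are not given in the sources used here.

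The adult heart burns mainly fatty acids and draws a smaller share of its energy from glucose, and under load and in the fetus the share of glucose is known to be larger. Most steps of the pathway are served by 2 or more gene products, one typical of striated muscle and one made in many cell types, such as Eno3 and Eno1 for enolase, or Pgam2 and Pgam1 for phosphoglycerate mutase. Flux is set mainly at transport, hexokinase, phosphofructokinase and pyruvate dehydrogenase, and mRNA levels alone do not measure it.

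Total counts ran from 53877439 to 91579342 per library, and mitochondrial genes made up 29.1% to 33.3% of these counts in Tg Ang II, 28.1% to 35% in Tg saline, 30.1% to 38.8% in WT Ang II and 32.6% to 38.8% in WT saline hearts. This share moves with the genotype, and its part in the results was not tested. Larp6 stood at 444 scaled FPKM or more in every library labelled Tg and at 63.7 or less in every library labelled WT except library 329, which stood at 1004. Library 329 is labelled WT Ang II male, but the letters of its column name stand for Tg. Library 847 is labelled Tg Ang II male, its letters stand for WT, and its Larp6 level was 1119. Both were kept under their labels, and counts are given with and without them. Nppa, a load-responsive natriuretic peptide, had medians of 1500 scaled FPKM in Tg Ang II, 1010 in Tg saline, 480 in WT Ang II and 118 in WT saline hearts. Myh7, the slow myosin of the stressed mouse ventricle, had medians of 611, 632, 209.8 and 141 in the same order.

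Markers of the other cell types in the tissue moved with the genotype. Under saline, 8 of 8 fibroblast markers and 7 of 7 macrophage markers were higher in Tg than in WT hearts, and 7 of 7 endothelial markers were lower. Of 7 mural cell markers 2 were higher and 5 lower, of 7 cardiomyocyte markers 4 were lower and 0 higher, and of 5 red blood cell markers 0 were called. The summed level of the cardiomyocyte markers was 15500 to 19100 scaled FPKM in Tg saline and 17200 to 20600 in WT saline hearts, that of the fibroblast markers 187 to 312 and 127 to 179, and that of the macrophage markers 135 to 392 and 89 to 114. The endothelial sums were 84.7 to 117 in Tg saline and 120 to 188 in WT saline hearts. Under Ang II, 6 of 8 fibroblast and 5 of 7 macrophage markers were higher in Tg than in WT hearts, and 7 of 7 endothelial markers were lower. Of 7 cardiomyocyte markers 5 were lower and 1 higher there, of 7 mural markers 4 lower and 2 higher, and of 5 red blood cell markers 0 were called. The endothelial sums under Ang II were 88.6 to 134 in Tg and 102 to 176 in WT hearts, the fibroblast sums 138 to 283 and 107 to 208, and the macrophage sums 105 to 223 and 73.4 to 211. In bulk tissue fewer cells of a type and less RNA per cell cannot be told apart, and the part that cell makeup has in the differences below was not tested. Skeletal muscle markers summed to at most 1.24 scaled FPKM in any library, and Myh4, the fast skeletal myosin, was at 0 in 49 of 50 libraries. Adipocyte markers summed to at most 0.654, and atrial markers to at most 1.17.

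The promoters of 6 genes stand for the members that moved furthest in Tg hearts under saline: the 4 with the largest falls (Pfkfb1, Eno3, Fbp2 and Ldhb) and the 2 with the largest rises (Pfkp and Pgam1). Each line gives the 250 bases before the RefSeq start on GRCm38.p6, read 5′ to 3′ on the strand of the gene. Capitals mark matches to any of 5 motifs on either strand: the E-box CACGTG, the HIF core ACGTG that lies within it, the MEF2 core CTANNNNTA, the MCAT element CATTCC of TEAD factors, and the estrogen-related receptor element TNAAGGTCA.
Pfkfb1, chrX:150587993-150588242, plus strand: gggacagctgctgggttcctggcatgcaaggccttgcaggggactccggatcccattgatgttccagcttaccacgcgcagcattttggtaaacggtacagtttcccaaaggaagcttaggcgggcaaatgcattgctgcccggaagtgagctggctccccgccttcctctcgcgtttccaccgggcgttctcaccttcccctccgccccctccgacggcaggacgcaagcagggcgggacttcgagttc
Eno3, chr11:70656926-70657175, plus strand: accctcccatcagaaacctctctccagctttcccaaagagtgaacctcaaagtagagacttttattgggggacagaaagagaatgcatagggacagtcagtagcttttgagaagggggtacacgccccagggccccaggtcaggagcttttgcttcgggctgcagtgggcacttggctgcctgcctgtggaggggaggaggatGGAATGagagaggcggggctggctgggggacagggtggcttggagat
Fbp2, chr13:62858401-62858650, minus strand: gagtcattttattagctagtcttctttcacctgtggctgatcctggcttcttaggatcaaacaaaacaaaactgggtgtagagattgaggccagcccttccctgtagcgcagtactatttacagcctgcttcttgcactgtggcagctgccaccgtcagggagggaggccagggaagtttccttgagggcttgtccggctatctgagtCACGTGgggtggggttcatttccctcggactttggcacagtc
Ldhb, chr6:142507958-142508207, minus strand: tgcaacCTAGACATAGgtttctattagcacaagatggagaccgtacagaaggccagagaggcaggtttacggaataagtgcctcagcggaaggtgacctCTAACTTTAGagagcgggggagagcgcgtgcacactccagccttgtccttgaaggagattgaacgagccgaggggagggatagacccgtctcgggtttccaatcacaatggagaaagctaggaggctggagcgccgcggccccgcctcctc
Pfkp, chr13:6648772-6649021, minus strand: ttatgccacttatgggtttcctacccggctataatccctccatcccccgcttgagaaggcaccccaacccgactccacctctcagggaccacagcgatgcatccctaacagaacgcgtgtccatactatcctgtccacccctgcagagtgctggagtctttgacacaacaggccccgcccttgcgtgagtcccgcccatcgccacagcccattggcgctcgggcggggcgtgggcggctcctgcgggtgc
Pgam1, chr19:41911621-41911870, plus strand: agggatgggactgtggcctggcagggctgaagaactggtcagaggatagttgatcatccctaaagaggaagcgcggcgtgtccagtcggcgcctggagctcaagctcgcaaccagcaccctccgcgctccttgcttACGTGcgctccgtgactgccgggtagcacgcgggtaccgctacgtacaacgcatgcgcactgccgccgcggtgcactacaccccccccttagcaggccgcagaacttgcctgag

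The Fbp2 window held 1 E-box, 42 bases before the start. The Pgam1 window held 1 HIF core, and the Eno3 window 1 MCAT element on the opposite strand. The Ldhb window matched the letters CTANNNNTA, searched as the MEF2 core with any base at N, at 2 places, each read on both strands. Neither Pfkfb1 nor Pfkp held any of the 5 motifs in these letters. RefSeq windows matched 33 of the 36 members by symbol. Pfkfb1 has 4 windows there, and the one nearest its start in the deposited table is shown. Among the 33, the E-box was found in 6 windows (18.2%), against 6.02% of all 32851 windows, and the HIF core in 14 (42.4%), against 16.6% of all. The 6 windows with an E-box are among these 14, because the HIF core lies within the E-box. Windows of like base content were not compared. The MEF2 core was in 3 (9.09%, against 19%), the MCAT element in 1 (3.03%, against 12.6%) and the receptor element in 0, against 1.14% of all. A match is a description of the letters and shows no binding.

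Under saline, Tg hearts had lower mRNA of the muscle forms Eno3, Fbp2, Hk2, Pgam2 and Pygm and of Ldhb, and higher mRNA of the forms Hk1, Pfkp, Pgam1 and Pygb. The muscle form Pfkm and the other forms Eno1, Pfkl and Slc2a1 were not called, and neither was Ldha. Of the 36 members, 15 fell and 6 rose in Tg against WT saline hearts, 21 in all or 58.3%, where 40.6% of all genes tested were called, 20.2% lower and 20.4% higher. The median log2 fold change of the members was -0.09, beside 0.000437 for all genes tested. Under Ang II, 14 members were lower and 9 higher in Tg than in WT hearts, 23 in all or 63.9%, where 32.8% of all genes were called, 16.4% in each direction, and the medians were -0.000386 for the members and -0.00815 for all genes. Of these, 17 members (47.2%) were called in the same direction under saline and under Ang II, beside 25% of all genes tested. Tests here and below are quasi-likelihood tests of edgeR, each p value carries a Benjamini-Hochberg adjustment across all 11628 tested genes, and a member was called at an adjusted p under 0.05. Calls past 1.5-fold came to 4 of 36 members under saline and 2 of 36 under Ang II, beside 786 and 425 of all genes. By mean level, Pfkfb1, Ppp1r3b and Slc2a1 stood at percentiles 41.5, 47.7 and 50 of the genes tested, and every other member at 63.4 or above. Calls here and below were not compared with those of genes of like level. Without libraries 329 and 847 the members called were 21 under saline and 22 under Ang II, beside 4736 and 3870 of all genes. With no scaling beyond library size, 12 members were higher and 11 lower in Tg hearts under saline. Of all genes, 4868 were higher and 919 lower in that fit, with medians of 0.137 for all genes and 0.0444 for the members. For Tg against WT under Ang II, 12 members were higher and 10 lower, beside 3372 and 927 of all genes, with medians of 0.0875 for the members and 0.0789 for all genes. Lower member calls thus no longer outnumbered higher ones. They still made up a larger part of the member calls than lower calls did among all genes. Under that scaling the calls of Pgam2, Pkm, Pdha1 and Pdhb under saline and of Pfkm, Pdhb, Dlat and Gys1 under Ang II were lost.

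**Figure D1:**
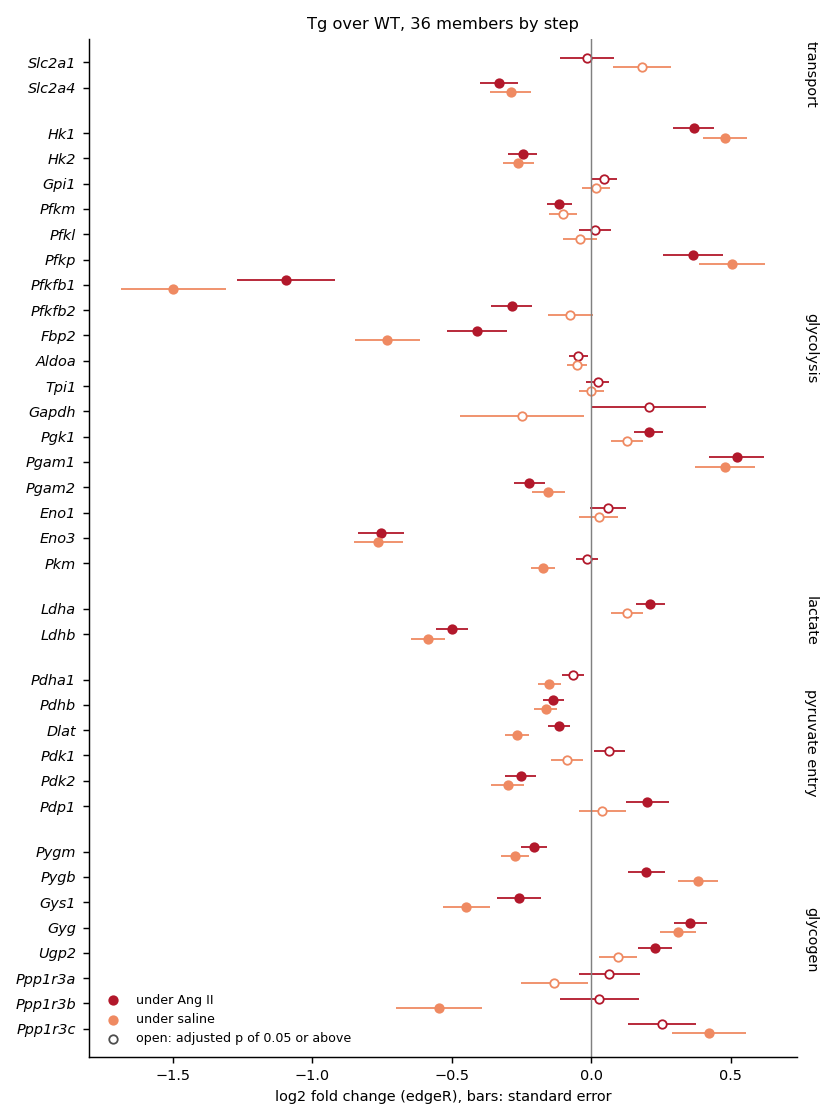
Log2 fold change of Tg over WT hearts for the 36 members by step, with Ang II above saline for each gene, bars for the standard error and filled points for an adjusted p under 0.05. Pfkfb1, Eno3, Fbp2 and Ldhb lie furthest to the left at -1.50, -0.76, -0.73 and -0.59 under saline, and Pfkp and Pgam1 furthest to the right at 0.51 and 0.48.

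Among the transporters, Slc2a4 encodes GLUT4, the insulin-responsive transporter of muscle and fat. Its lowest, median and highest levels were 44.4, 55.3 and 63.4 scaled FPKM in Tg Ang II and 50.5, 64.9 and 73.1 in Tg saline hearts, and 55.7, 65.4 and 89.2 in WT Ang II and 60.2, 78.4 and 90.7 in WT saline hearts. The level is the deposited FPKM divided by a scaling factor of the library, and 3 levels given together are always the lowest, median and highest of a group. Slc2a4 was lower in Tg hearts, with log2 fold changes of -0.29 ± 0.07 under saline (here and below, a value with ± is a log2 fold change with its SE, adjusted p = 0.00155) and -0.33 ± 0.07 under Ang II (adjusted p = 1.72e-04), and the groups overlapped. Slc2a1, the widespread transporter GLUT1, was not called between the genotypes under saline (0.18 ± 0.11, adjusted p = 0.166) or Ang II (-0.01 ± 0.10, adjusted p = 0.93). Its medians were 3.51 in Tg Ang II, 3.30 in Tg saline, 3.80 in WT Ang II and 3.09 in WT saline hearts.

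The largest difference in the set was at the control of phosphofructokinase. Pfkfb1 (ENSMUSG00000025271, chrX:150588229-150643878) encodes the liver and muscle form of the enzyme that makes and breaks down the fructose bisphosphate known to activate phosphofructokinase. It had 0.670, 1.37 and 1.89 scaled FPKM in Tg Ang II and 1.21, 1.92 and 2.84 in Tg saline hearts. In WT Ang II hearts it had 1.12, 3.10 and 4.57, and in WT saline hearts 3.57, 5.32 and 7.31. All 12 Tg saline libraries lay below all 11 WT saline libraries, as they did for 2 other members, Eno3 and Ldhb. These 3 are 8.33% of the members. Of all genes tested, 4.08% had no overlap between these groups, 1.43% with Tg below and 2.65% with Tg above, and 40.6% were called. The log2 fold change of Tg over WT was -1.50 ± 0.19 under saline (adjusted p = 1.76e-08), a level of 0.354 times WT, and -1.09 ± 0.18 under Ang II (adjusted p = 3.8e-06). Pfkfb1 had the lowest level of the 36 members and overlaps Apex2 on the opposite strand. Of the 36 members, 15 overlap a gene on the opposite strand, and the strand setting of the counting is not given in the sources used here. Pfkfb2, the heart form of the same enzyme, was not called under saline (-0.07 ± 0.08, adjusted p = 0.483) and was lower in Tg hearts under Ang II (-0.28 ± 0.07, adjusted p = 0.00218), with medians of 7.37 in Tg Ang II, 7.68 in Tg saline, 8.82 in WT Ang II and 8.09 in WT saline hearts.

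The phosphofructokinase subunits themselves, which catalyse the committed step of glycolysis, differed in direction. Pfkp (ENSMUSG00000021196, chr13:6579768-6648777), the platelet form, had 5.32, 6.47 and 12 scaled FPKM in Tg Ang II and 3.35, 4.73 and 5.65 in Tg saline hearts. WT Ang II hearts had 4.15, 4.74 and 9.35 and WT saline hearts 2.92, 3.27 and 3.88, so that 11 of 12 Tg saline libraries lay above the highest WT saline library. Pfkp rose by 0.51 ± 0.12 in Tg hearts under saline (adjusted p = 5.53e-04) and by 0.37 ± 0.11 under Ang II (adjusted p = 0.00673). Pfkp overlaps the protein-coding gene Pitrm1 on the opposite strand. Pfkm, the muscle form and the most abundant of the 3, was not called under saline (-0.10 ± 0.05, adjusted p = 0.0948) and was lower in Tg hearts under Ang II (-0.11 ± 0.05, adjusted p = 0.0462). The Pfkm call under Ang II was lost without libraries 329 and 847, without library 715 of the Tg Ang II males, and without libraries 232 and 332 of WT saline, with adjusted p values of 0.0602, 0.113 and 0.0503. Pfkl, the liver form, was not called in either comparison (-0.04 ± 0.06 and 0.01 ± 0.06).

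Fbp2 (ENSMUSG00000021456, chr13:62836877-62858422), the muscle fructose bisphosphatase that runs the opposite reaction, had 4.15, 6.93 and 9.67 scaled FPKM in Tg Ang II and 6.19, 8.75 and 12.3 in Tg saline hearts, against 5.59, 9.46 and 13.6 in WT Ang II and 10.4, 14.6 and 17.1 in WT saline hearts. Of the 12 Tg saline libraries, 9 lay below the lowest WT saline library. Fbp2 was lower in Tg hearts, with log2 fold changes of -0.73 ± 0.12 under saline (adjusted p = 1.97e-06) and -0.41 ± 0.11 under Ang II (adjusted p = 0.00262).

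Of the late steps, enolase and phosphoglycerate mutase differed most. Eno3 (ENSMUSG00000060600, chr11:70657202-70662513), the muscle enolase, had 198, 234 and 319.9 scaled FPKM in Tg Ang II and 209, 263 and 330.0 in Tg saline hearts. WT Ang II hearts had 267, 433 and 493, and WT saline hearts had 384, 431 and 501. The lowest WT Ang II library was library 329 at 267, and the next lowest stood at 368, above all 13 Tg Ang II libraries. Eno3 was lower in Tg hearts, with log2 fold changes of -0.76 ± 0.09 under saline (adjusted p = 2.21e-09) and -0.75 ± 0.08 under Ang II (adjusted p = 1.47e-09), 0.590 and 0.593 times the WT level. Eno1, the widespread enolase, did not pass the test in either comparison (0.03 ± 0.07 and 0.06 ± 0.06), with medians of 24.7 in Tg Ang II, 23.0 in Tg saline, 23.4 in WT Ang II and 22.1 in WT saline hearts.

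Pgam1 (ENSMUSG00000011752, chr19:41911923-41918660), the widespread phosphoglycerate mutase, had 31.6, 38.6 and 58.8 scaled FPKM in Tg Ang II and 24.5, 36.2 and 41.3 in Tg saline hearts, against 20.4, 27.3 and 42.0 in WT Ang II and 17.4, 23.4 and 33.6 in WT saline hearts. It was higher in Tg hearts by 0.48 ± 0.11 under saline (adjusted p = 3.88e-04) and 0.52 ± 0.10 under Ang II (adjusted p = 5.71e-05), and the groups overlapped. Reads of its pseudogene Pgam1-ps2 came to 6.73% of its count, so a small share of either may be misplaced. Pgam2, the muscle form, was lower in Tg hearts, with log2 fold changes of -0.15 ± 0.06 (adjusted p = 0.037) and -0.22 ± 0.06 (adjusted p = 0.00157).

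Hexokinase traps glucose in the cell, and its 2 forms differed in opposite directions. Hk1, the form of brain and many other tissues, had 20.4, 24.4 and 29.7 scaled FPKM in Tg Ang II and 19.9, 23.3 and 29.7 in Tg saline hearts, against 14.6, 18.0 and 28.5 in WT Ang II and 13.7, 17.1 and 24.8 in WT saline hearts. It was higher in Tg hearts by 0.48 ± 0.08 under saline (adjusted p = 4.6e-06) and 0.37 ± 0.07 under Ang II (adjusted p = 1.05e-04). Hk2, the insulin-responsive muscle form, was lower, with -0.26 ± 0.06 (adjusted p = 1.72e-04) and -0.25 ± 0.05 (adjusted p = 1.79e-04), and 9 of 13 Tg Ang II libraries lay below the lowest WT Ang II library. A gene on the opposite strand overlaps each of the 2.

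**Figure D2:**
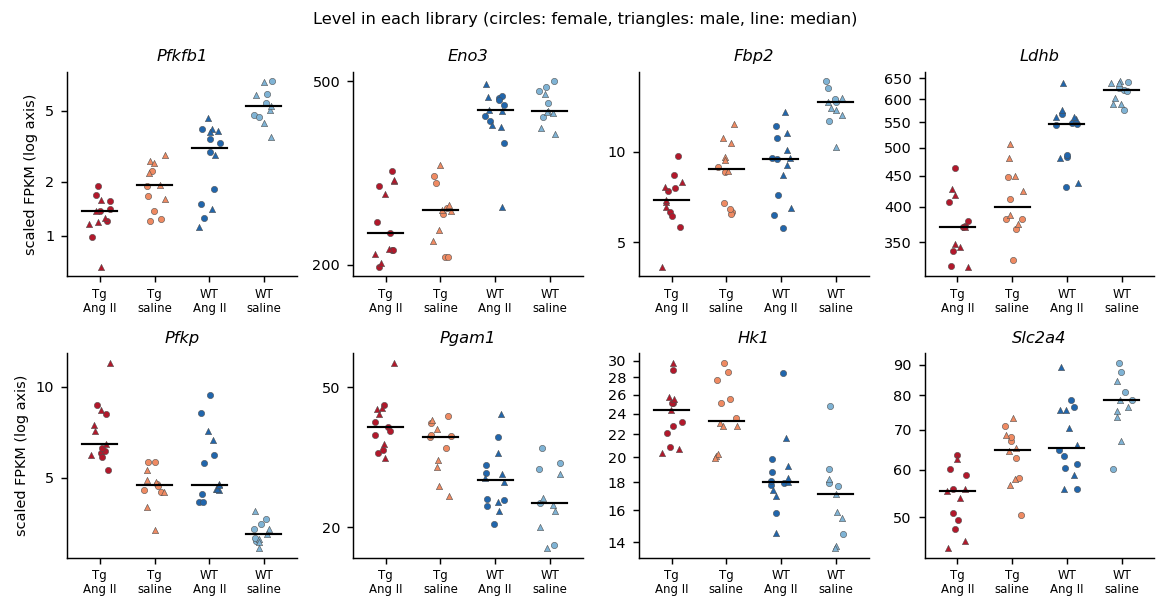
Scaled FPKM on a log axis in each library, for 8 members across Tg Ang II, Tg saline, WT Ang II and WT saline hearts, with circles for females, triangles for males and a line at the median. Pfkfb1, Eno3 and Ldhb have no Tg saline library at or above the lowest WT saline library, whereas Pfkp, Pgam1 and Hk1 are higher in Tg hearts.

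The other genes of glycolysis moved less. Pkm, the muscle and widespread pyruvate kinase, was lower in Tg hearts under saline (-0.17 ± 0.04, adjusted p = 0.00151) and not called under Ang II (-0.01 ± 0.04, adjusted p = 0.82). Pgk1, phosphoglycerate kinase, was not called under saline (0.13 ± 0.06, adjusted p = 0.0639) and was higher under Ang II (0.21 ± 0.05, adjusted p = 0.00164). It had 106, 121 and 169 scaled FPKM in Tg Ang II and 95.4, 108 and 117 in Tg saline hearts, against 96.1, 105 and 131 in WT Ang II and 90.7, 96.3 and 102 in WT saline hearts. Glucose phosphate isomerase Gpi1 (0.02 ± 0.05 and 0.05 ± 0.05), aldolase Aldoa (-0.05 ± 0.04 and -0.05 ± 0.03) and triose phosphate isomerase Tpi1 (0.00 ± 0.04 and 0.02 ± 0.04) were called in neither comparison. For Aldoa, the most abundant member, 95% intervals of the log2 fold change ran from -0.12 to 0.02 under saline and from -0.11 to 0.02 under Ang II. Gapdh was not called (-0.25 ± 0.22 and 0.21 ± 0.20), but the counts of its near-identical pseudogenes Gapdh-ps15 and Gapdh-ps16 came to 44.1% and 34.1% of its own, so its level is uncertain.

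Lactate dehydrogenase is built from heart-type B subunits, which favour the oxidation of lactate, and A subunits, which favour its production. Ldhb (ENSMUSG00000030246, chr6:142490249-142507957), the B subunit, had 319, 371 and 463 scaled FPKM in Tg Ang II and 327, 400.2 and 506 in Tg saline hearts. In WT Ang II hearts it had 431, 547 and 638, and in WT saline hearts 576, 621 and 643. Tg saline and WT saline hearts did not overlap, and 12 of 13 Tg Ang II libraries lay below the lowest WT Ang II library. Its log2 fold change of Tg over WT was -0.59 ± 0.06 under saline (adjusted p = 3.05e-10) and -0.50 ± 0.06 under Ang II (adjusted p = 4.91e-09). Ldha, the A subunit, was not called under saline (0.13 ± 0.06, adjusted p = 0.068) and was higher in Tg hearts under Ang II (0.21 ± 0.05, adjusted p = 0.00144). Ldha had 139, 158 and 222 scaled FPKM in Tg Ang II and 134, 144 and 159 in Tg saline hearts, against 122, 138 and 168 in WT Ang II and 119, 130.4 and 155 in WT saline hearts.

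The pyruvate dehydrogenase complex commits pyruvate to oxidation in the mitochondrion. Under saline 4 of the 6 members fell and 0 rose, 66.7% beside 40.6% of all genes tested, of which 20.2% were lower. Under Ang II 3 were lower and 1 higher, 66.7% beside 32.8% of all genes, of which 16.4% were lower. Dlat, the acetyltransferase core, had 40.3, 45.1 and 50.6 scaled FPKM in Tg saline hearts, against 43.8, 56.6 and 60.0 in WT saline hearts, and differed by -0.27 ± 0.04 (adjusted p = 2.53e-06). Pdhb, the beta subunit of the first enzyme of the complex, differed by -0.16 ± 0.04 (adjusted p = 9.86e-04) and had 75.8, 89.1 and 103 scaled FPKM in Tg saline against 89.8, 101 and 109 in WT saline hearts. Its partner Pdha1, the alpha subunit, differed by -0.15 ± 0.04 (adjusted p = 0.00418), with 186, 199 and 227 scaled FPKM in Tg saline against 174, 232 and 237 in WT saline hearts. For all 3 genes the ranges of the genotypes overlapped. Under Ang II the differences were -0.11 ± 0.04 for Dlat (adjusted p = 0.0224), -0.14 ± 0.04 for Pdhb (adjusted p = 0.00377) and -0.07 ± 0.04 for Pdha1, which was not called (adjusted p = 0.202). Dlat had 44.8, 48.8 and 55.0 scaled FPKM in Tg Ang II hearts against 48.2, 52.0 and 58.7 in WT Ang II hearts, and Pdhb 79.7, 88.2 and 103 against 93.1, 98.6 and 105. For Pdhb, 10 of 13 Tg Ang II libraries lay below the lowest WT Ang II library.

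The kinases and phosphatases that switch the complex off and on were mixed. Pdk2, a kinase that inactivates it, had 66.9, 80.5 and 91.8 scaled FPKM in Tg Ang II and 72.9, 84.0 and 95.6 in Tg saline hearts, against 78.3, 91.0 and 118 in WT Ang II and 87.2, 106 and 114 in WT saline hearts. It was lower in Tg hearts, with log2 fold changes of -0.30 ± 0.06 under saline (adjusted p = 7.55e-05) and -0.25 ± 0.06 under Ang II (adjusted p = 3.38e-04). Pdk1, another such kinase, was not called between the genotypes (-0.09 ± 0.06 and 0.07 ± 0.05), with 15.0, 18.4 and 22.4 scaled FPKM in Tg Ang II and 13.2, 16.1 and 18.1 in Tg saline hearts, against 15.5, 17.9 and 19.6 in WT Ang II and 12.3, 17.6 and 19.0 in WT saline hearts. Pdp1, the phosphatase that reactivates the complex, was not called under saline (0.04 ± 0.08, adjusted p = 0.738) and was higher in Tg hearts under Ang II (0.20 ± 0.08, adjusted p = 0.0414), with 5.36, 5.85 and 7.86 scaled FPKM in Tg Ang II against 4.41, 5.01 and 7.21 in WT Ang II hearts.

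Of the 8 glycogen genes, 3 rose and 3 fell in Tg hearts under saline, 75% beside 40.6% of all genes tested. Under Ang II 3 were higher and 2 lower, 62.5% beside 32.8% of all genes. Gys1, the muscle glycogen synthase, had 14.9, 20.0 and 22.2 scaled FPKM in Tg Ang II and 15.4, 18.2 and 22.5 in Tg saline hearts, against 17.6, 23.6 and 27.9 in WT Ang II and 15.8, 25.5 and 30.1 in WT saline hearts. It was lower in Tg hearts, with log2 fold changes of -0.45 ± 0.08 under saline (adjusted p = 3.29e-05) and -0.26 ± 0.08 under Ang II (adjusted p = 0.00815). Gyg, glycogenin, the protein that primes a new glycogen particle, had 56.7, 65.8 and 83.8 in Tg Ang II and 48.8, 56.7 and 67.0 in Tg saline hearts, against 44.8, 51.8 and 71.7 in WT Ang II and 39.3, 45.3 and 50.3 in WT saline hearts. Gyg was higher in Tg hearts by 0.31 ± 0.06 (adjusted p = 1.18e-04) and 0.36 ± 0.06 (adjusted p = 6.62e-06), with 11 of 12 Tg saline libraries above the highest WT saline library. Ugp2, which makes UDP-glucose, the substrate of the synthase, was not called under saline (0.10 ± 0.07, adjusted p = 0.256) and was higher in Tg hearts under Ang II (0.23 ± 0.06, adjusted p = 0.00319). Ugp2 had 66.5, 79.9 and 90.5 scaled FPKM in Tg Ang II and 53.9, 63.7 and 72.7 in Tg saline hearts, against 56.1, 65.1 and 91.9 in WT Ang II and 46.9, 58.8 and 66.7 in WT saline hearts. Gys1 overlaps Ruvbl2 on the opposite strand.

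Glycogen phosphorylase frees glucose units, and its muscle and brain forms differed in opposite directions. Pygm, the muscle form, had 191, 217 and 236 scaled FPKM in Tg Ang II and 219, 229 and 257 in Tg saline hearts, against 197, 244 and 283 in WT Ang II and 230.0, 288 and 302 in WT saline hearts. It was lower in Tg hearts, with log2 fold changes of -0.27 ± 0.05 (adjusted p = 2.41e-05) and -0.21 ± 0.05 (adjusted p = 5.22e-04). Pygb, the brain form, had 119, 147 and 176 in Tg Ang II and 132, 166 and 176 in Tg saline hearts, against 92.2, 132 and 149.9 in WT Ang II and 85.4, 125 and 151 in WT saline hearts. Pygb was higher in Tg hearts by 0.38 ± 0.07 (adjusted p = 3.29e-05) and 0.20 ± 0.07 (adjusted p = 0.0181).

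The 3 targeting subunits bring protein phosphatase 1 to glycogen, where it activates the synthase. Ppp1r3c, or PTG, had 40.1, 56.5 and 104 scaled FPKM in Tg Ang II and 32.6, 47.8 and 65.1 in Tg saline hearts, against 27.9, 50.2 and 79.2 in WT Ang II and 25.1, 35.5 and 44.5 in WT saline hearts. It was higher in Tg hearts under saline (0.42 ± 0.13, adjusted p = 0.00899) and not called under Ang II (0.25 ± 0.12, adjusted p = 0.103). Ppp1r3b, the liver and muscle subunit, had 2.43, 2.89 and 3.83 in Tg Ang II and 2.27, 3.22 and 3.57 in Tg saline hearts, against 2.02, 2.91 and 3.70 in WT Ang II and 2.42, 3.69 and 10.2 in WT saline hearts. It was lower in Tg hearts under saline (-0.55 ± 0.15, adjusted p = 0.00366). That call rests on WT saline libraries 232 and 332, at 7.88 and 10.15: without both it was -0.19 (adjusted p = 0.174). Under Ang II the log2 fold change of Ppp1r3b was 0.03 ± 0.14. Ppp1r3a, the striated muscle subunit, was not called in either comparison (-0.13 ± 0.12 and 0.07 ± 0.11).

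**Figure D3:**
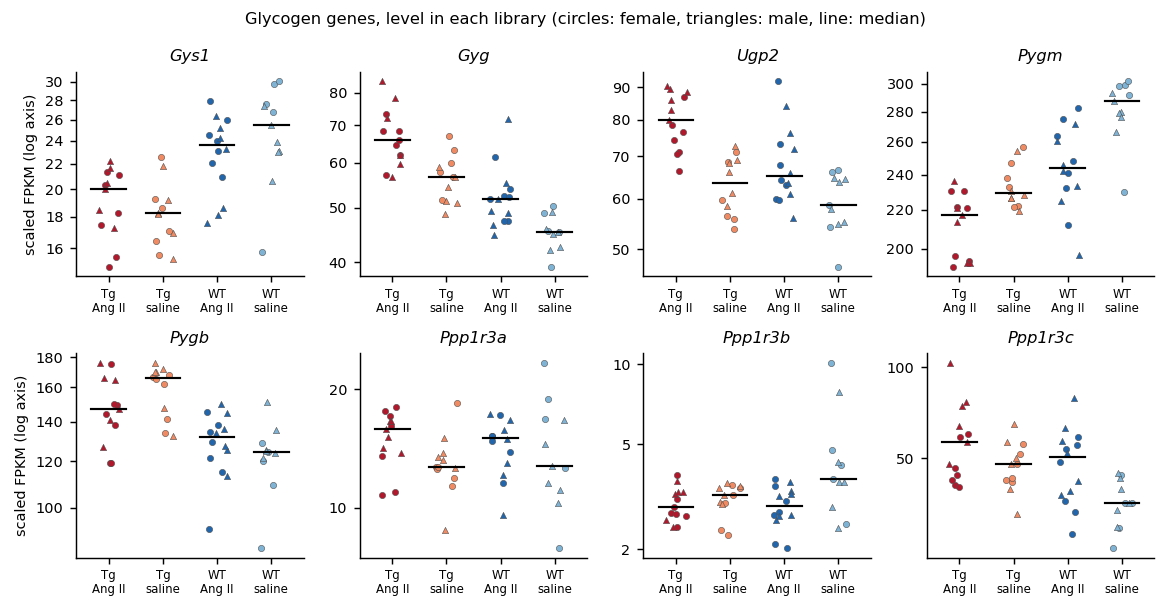
Scaled FPKM on a log axis of the 8 glycogen genes in each library of Tg Ang II, Tg saline, WT Ang II and WT saline hearts, with circles for females, triangles for males and a line at the median. Gyg and Pygb have higher medians in both Tg groups and Gys1 and Pygm lower ones, and Ppp1r3b has 2 high WT saline libraries.

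In WT hearts, Ang II lowered 8 members and raised 6 against saline, 14 in all or 38.9%, where 18.6% of all genes tested were called, 8.87% lower and 9.71% higher. Beside this, 3 of 8 fibroblast markers and 1 of 7 macrophage markers rose, 1 of 7 endothelial and 1 of 7 mural markers fell, and 0 of 7 cardiomyocyte markers were called. Their part in the result was not tested. The median log2 fold change of the members was 0.06, beside -0.00117 for all genes tested. With no scaling beyond library size the split of the called members turned to 10 higher and 5 lower, beside 1987 higher and 477 lower of all genes. Pfkfb1 fell most (-0.95 ± 0.18, adjusted p = 1.58e-04), and the WT Ang II libraries spread widely, from 1.12 to 4.57 scaled FPKM, against 3.57 to 7.31 in WT saline hearts. Fbp2 also fell (-0.63 ± 0.11, adjusted p = 8.06e-05), as did Ldhb (-0.22 ± 0.06, adjusted p = 0.00684), Pygm (-0.20 ± 0.05, adjusted p = 0.0022), Pkm (-0.18 ± 0.04, adjusted p = 0.00247) and Pfkm (-0.16 ± 0.05, adjusted p = 0.0132). Pkm had 130.2, 150.4 and 167 scaled FPKM in WT Ang II hearts against 141, 170.3 and 182 in WT saline hearts. Pdp1 fell (-0.24 ± 0.08, adjusted p = 0.0356) in groups that overlapped, with 4.41, 5.01 and 7.21 in WT Ang II hearts against 4.29, 6.20 and 7.72 in WT saline hearts. Ppp1r3b was lower (-0.63 ± 0.15, adjusted p = 0.00185), but without libraries 232 and 332 the value was -0.28 (adjusted p = 0.0671).

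Pfkp rose most with Ang II in WT hearts (0.76 ± 0.11, adjusted p = 6.84e-06), and all 14 WT Ang II libraries, at 4.15 or more, lay above all 11 WT saline libraries, at 3.88 or less. It was the 1 member of 36 (2.78%) with no overlap between these groups, beside 0.232% of all genes tested, and 18.6% of all genes were called. Ppp1r3c (0.45 ± 0.13, adjusted p = 0.0109), Gyg (0.21 ± 0.06, adjusted p = 0.0132) and Ugp2 (0.21 ± 0.06, adjusted p = 0.0196) rose as well. Slc2a1 had 3.19, 3.80 and 4.96 scaled FPKM in WT Ang II hearts against 2.37, 3.09 and 4.36 in WT saline hearts, a rise of 0.29 ± 0.10 (adjusted p = 0.0368). Pgk1 rose by 0.17 ± 0.05 (adjusted p = 0.0279). Without library 329, labelled WT, the calls of Slc2a1 and Pgk1 were lost, with adjusted p values of 0.0597 and 0.0516. In that fit 12 members were called, beside 1790 of all genes. With library-number clusters as a term the calls of Slc2a1, Pgk1, Pdp1 and Ugp2 were lost, and with no scaling beyond library size those of Pfkm, Pkm and Pdp1.

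The muscle enolase Eno3 showed no call with Ang II in WT hearts (-0.07 ± 0.08, 95% interval -0.24 to 0.09), and neither did Slc2a4 (-0.19 ± 0.07, adjusted p = 0.0506). Values of the other members not called there were 0.13 ± 0.08 for Hk1, -0.08 ± 0.05 for Hk2, 0.12 ± 0.05 for Gpi1, 0.09 ± 0.06 for Pfkl, 0.18 ± 0.08 for Pfkfb2 and 0.08 ± 0.21 for Gapdh. For Pgam1, Pgam2, Eno1, Aldoa and Tpi1 they lay between 0.05 and 0.18. Those of Ldha (0.08 ± 0.06), Pdha1 (-0.05 ± 0.04), Pdhb (-0.02 ± 0.04), Dlat (-0.07 ± 0.04), Pdk1 (0.06 ± 0.06) and Pdk2 (-0.14 ± 0.06) did not pass either. Among the glycogen genes, Gys1 (-0.12 ± 0.08), Pygb (0.08 ± 0.07) and Ppp1r3a (0.02 ± 0.12) were not called.

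In Tg hearts, Ang II raised 7 members and lowered 3 against saline, 10 in all or 27.8%, where 8.93% of all genes tested were called, 4.88% higher and 4.04% lower. Of the markers, 1 of 8 fibroblast markers rose and 3 fell, 1 of 7 cardiomyocyte markers rose, and 0 of 7 endothelial and 0 of 7 macrophage markers were called, a set of values whose part in the result was not tested. The member median was 0.04, beside -0.00613 for all genes. With no scaling beyond library size 5 members were higher and 4 lower, beside 441 higher and 311 lower of all genes. Pfkp rose most (0.62 ± 0.11, adjusted p = 3.5e-04), followed by Ugp2 (0.34 ± 0.06, adjusted p = 5.35e-04), Gyg (0.25 ± 0.06, adjusted p = 0.00648) and Pgk1 (0.24 ± 0.05, adjusted p = 0.00287). Pdk1 rose by 0.21 ± 0.06 (adjusted p = 0.0122). Ldha (0.17 ± 0.05, adjusted p = 0.046) and Gpi1 (0.14 ± 0.05, adjusted p = 0.0452) rose with smaller margins. Pfkfb1 (-0.54 ± 0.18, adjusted p = 0.0486), Slc2a4 (-0.23 ± 0.07, adjusted p = 0.0293) and Pfkm (-0.17 ± 0.05, adjusted p = 0.0149) fell, and Pfkm had 168, 199.8 and 229 in Tg Ang II against 198, 223 and 238 in Tg saline hearts.

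Several of these calls were lost when a library was left out, with smaller or similar fold changes. Without library 715, which had the highest Pfkp, Ppp1r3c and Slc2a1 of the Tg Ang II hearts, 6 members were called, while 656 of all genes were called in place of 1038. The lost members were Slc2a4 at -0.21 (adjusted p = 0.0678), Gpi1 at 0.12 (adjusted p = 0.121), Pfkfb1 at -0.48 (adjusted p = 0.106) and Ldha at 0.12 (adjusted p = 0.144). With no filter on low values 5 members were called, beside 634 of 35717 genes, and with library-number clusters as a term Gpi1, Ldha and Pdk1 were lost. Without library 965 of the Tg saline males the calls of Slc2a4 (-0.21, adjusted p = 0.0587) and Gpi1 (0.15, adjusted p = 0.0568) were lost. Without library 332 of the WT saline females, which is in neither group compared but shares the fit, that of Pfkfb1 was lost (-0.54, adjusted p = 0.0511). The rises of Pfkp, Ugp2, Gyg and Pgk1 kept their call under all 14 alternatives. Members not called with Ang II in Tg hearts lay between -0.30 (Fbp2) and 0.53 (Gapdh), with 0.28 ± 0.13 for Ppp1r3c, 0.21 ± 0.11 for Ppp1r3a and 0.22 ± 0.10 for Pgam1.

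**Figure D4:**
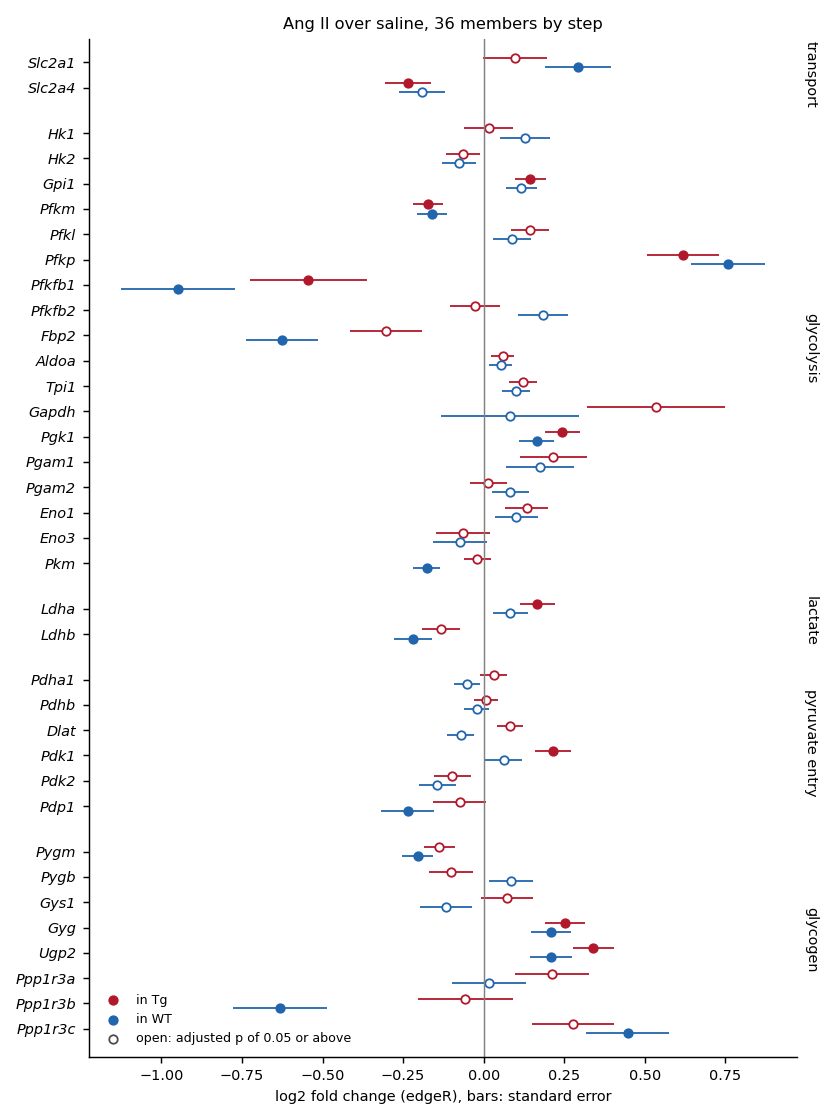
Log2 fold change of Ang II over saline hearts for the 36 members by step, with Tg above WT for each gene, bars for the standard error and filled points for an adjusted p under 0.05. Pfkp lies furthest to the right among the called members in both genotypes, at 0.62 in Tg and 0.76 in WT, and Pfkfb1 furthest to the left, at -0.54 and -0.95.

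Ang II gave a call in the same direction in both genotypes for 6 members (16.7%, beside 4.88% of all genes tested), Gyg, Pfkp, Pgk1 and Ugp2 higher and Pfkfb1 and Pfkm lower. Another 8 were called in WT hearts alone and 4 in Tg hearts alone, but the difference between the genotypes in the response to Ang II was called for 0 of the 36 members, where 0.043% of all genes, 5 of 11628, were called, 0.0086% higher and 0.0344% lower. That count of all genes was 11 without library 715, 2 without library 965 and 3 without library 332, and 0 of the 36 members were called in each. At an unadjusted p under 0.05, edgeR gave 4 members, Ppp1r3b, Pkm, Dlat and Fbp2, DESeq2 gave 4, and limma-trend gave 5 with a pseudocount of 1 and 4 with 0.1. Of all genes tested, 9.77% passed that threshold in edgeR, 9.97% in DESeq2, and 8.92% and 8.81% in limma-trend. None of these tools called a member after adjustment. The differences in response, Tg minus WT, were 0.58 ± 0.21 for Ppp1r3b, 0.32 ± 0.16 for Fbp2, 0.16 ± 0.06 for Pkm and 0.15 ± 0.06 for Dlat, with adjusted p values between 0.352 and 0.504. For Eno3 the difference was 0.01 ± 0.12 and for Pfkp -0.14 ± 0.16.

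The transgene and Ang II were each set against the same WT saline hearts, so their values are placed side by side and no count of shared calls is given. The genes listed first are those called in the same direction in both comparisons, so their matching signs follow from that choice. Eno3, Hk1, Hk2 and Pgam1, listed last, are among those called for the transgene alone. Signs differed for some other members, among them Pgam2, Pfkfb2 and Pdp1. Log2 fold changes, with the transgene first and Ang II in WT second, were -1.50 and -0.95 for Pfkfb1, -0.73 and -0.63 for Fbp2, -0.59 and -0.22 for Ldhb, -0.27 and -0.20 for Pygm, -0.17 and -0.18 for Pkm, and -0.55 and -0.63 for Ppp1r3b. They were 0.31 and 0.21 for Gyg, 0.51 and 0.76 for Pfkp, and 0.42 and 0.45 for Ppp1r3c. For Eno3 they were -0.76 and -0.07, for Hk1 0.48 and 0.13, for Hk2 -0.26 and -0.08, and for Pgam1 0.48 and 0.18. Both Ppp1r3b values rest on WT saline libraries 232 and 332. Without these libraries they were -0.19 and -0.28, and neither was called.

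Tg saline hearts were also tested against WT Ang II hearts, a comparison added after the values had been seen. Of the 36 members, 12 were lower and 4 higher in Tg saline hearts, 16 in all or 44.4%, where 31% of all genes were called, 15.5% in each direction. The medians were -0.105 for the members and 0.00276 for all genes. With no scaling beyond library size 6 members were higher and 7 lower, beside 2985 higher and 897 lower of all genes. Of the markers, 7 of 7 macrophage and 6 of 8 fibroblast markers were higher in Tg saline hearts, 6 of 7 endothelial and 4 of 7 cardiomyocyte markers lower, 2 of 7 mural markers higher and 2 lower, and 1 of 5 red blood cell markers lower. What they have to do with the result was not tested. Eno3 differed most (-0.69 ± 0.08, adjusted p = 1.6e-08), and 8 of 12 Tg saline libraries lay below the lowest WT Ang II library, which was library 329. Pfkfb1 (-0.55 ± 0.18, adjusted p = 0.0144), Ldhb (-0.37 ± 0.06, adjusted p = 3.95e-06) and Gys1 (-0.33 ± 0.08, adjusted p = 0.00119) were lower, as were Pfkfb2 (-0.26 ± 0.08), Pgam2 (-0.24 ± 0.06), Dlat (-0.20 ± 0.04), Hk2 (-0.18 ± 0.05), Pdk2 (-0.16 ± 0.06), Pdk1 (-0.15 ± 0.06), Pdhb (-0.14 ± 0.04) and Aldoa (-0.10 ± 0.03). Hk1 (0.35 ± 0.07, adjusted p = 2.82e-04), Pgam1 (0.30 ± 0.10, adjusted p = 0.0174), Pygb (0.30 ± 0.07, adjusted p = 5.82e-04) and Pdp1 (0.28 ± 0.08, adjusted p = 0.00623) were higher. With no scaling beyond library size the calls of Hk2, Aldoa, Pdhb, Pdk1 and Pdk2 were lost, and with library-number clusters as a term those of Pfkfb1, Pdk1 and Pdk2. Fbp2 (-0.11 ± 0.11), Pkm (0.00 ± 0.04), Pygm (-0.07 ± 0.05), Ppp1r3c (-0.02 ± 0.12) and Pfkp (-0.25 ± 0.11) were not called, nor were the other 15 members.

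Where a step has 2 gene forms, the log2 ratio of their FPKM values within a library does not depend on the scaling between libraries. For 7 pairs the ratio was that of the muscle form to another form of the enzyme or transporter, and the other two were the B over the A subunit of lactate dehydrogenase and Pdk2 over Pdk1. All 9 ratios had a lower median in Tg Ang II than in WT saline hearts, as a description with no test. For Eno3 over Eno1 the median log2 ratio was 3.27 in Tg Ang II and 3.53 in Tg saline hearts, against 4.25 in WT Ang II and 4.30 in WT saline hearts. The Tg saline libraries ran from 3.07 to 4.0 and the WT saline libraries from 4.11 to 4.45, without overlap. For Ldhb over Ldha the medians were 1.26 in Tg Ang II, 1.51 in Tg saline, 2.02 in WT Ang II and 2.22 in WT saline hearts, and again no Tg saline library, at 1.84 or less, reached the lowest WT saline library, at 1.99. On the linear scale the median ratio of B to A subunit FPKM was 2.40 in Tg Ang II and 4.67 in WT saline hearts.

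The median log2 ratio of Hk2 over Hk1 was 0.34 in Tg Ang II, 0.49 in Tg saline, 1.03 in WT Ang II and 1.23 in WT saline hearts. Pygm over Pygb had medians of 0.61 in Tg Ang II, 0.57 in Tg saline, 0.99 in WT Ang II and 1.21 in WT saline hearts, and Pgam2 over Pgam1 3.10, 3.16, 3.82 and 3.91 in that order. Pfkm over Pfkp had medians of 4.89 in Tg Ang II, 5.55 in Tg saline, 5.56 in WT Ang II and 6.17 in WT saline hearts. Slc2a4 over Slc2a1 had 3.99, 4.29, 4.10 and 4.69, Pdk2 over Pdk1 2.12, 2.43, 2.43 and 2.61, and Pfkm over Pfkl 3.75, 4.05, 3.87 and 4.12. Library 329, labelled WT Ang II, was the lowest of its group for 6 of the 9 ratios, namely Eno3 over Eno1, Ldhb over Ldha, Pygm over Pygb, Pgam2 over Pgam1, Slc2a4 over Slc2a1 and Pdk2 over Pdk1.

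**Figure D5:**
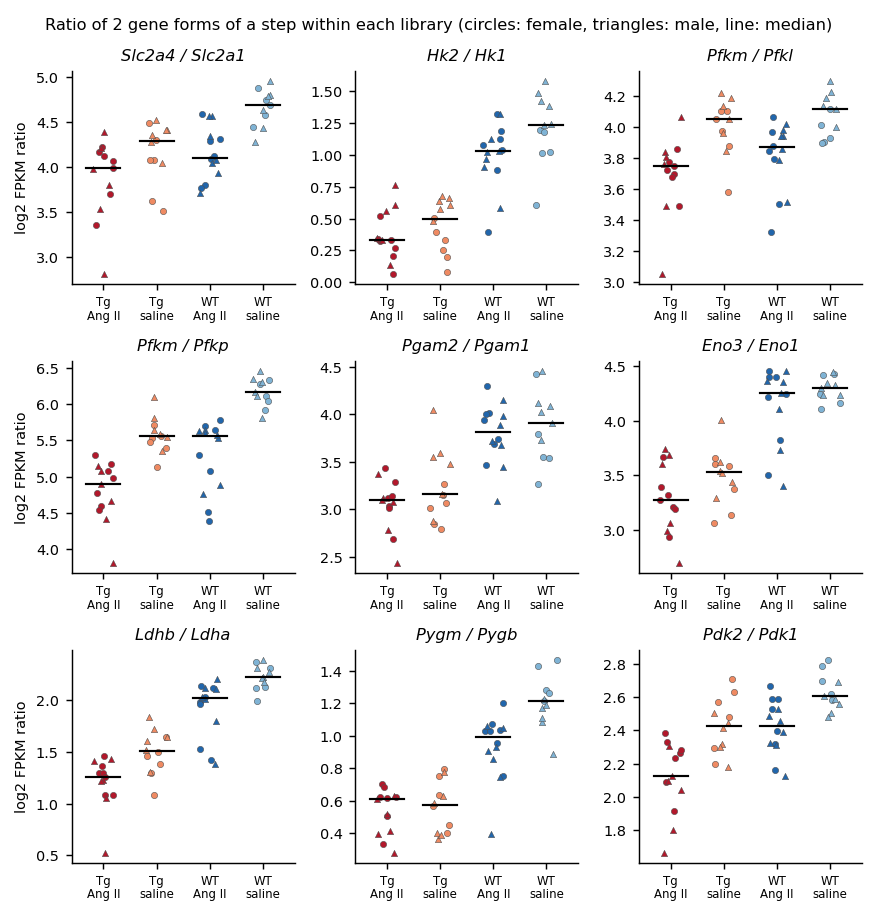
Log2 ratio of the FPKM of 2 gene forms of the same step within each library, named above each panel, for 9 pairs across Tg Ang II, Tg saline, WT Ang II and WT saline hearts, with circles for females, triangles for males and a line at the median. The medians of Eno3 over Eno1 are 3.27, 3.53, 4.25 and 4.30 in that order, and for this pair and for Ldhb over Ldha the Tg saline and WT saline libraries do not overlap.

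No member was called between females and males, 0 of 36, where 4.42% of all genes were called, 1.86% higher in females and 2.56% lower. At an unadjusted p under 0.05 edgeR gave 4 members, Hk1 (0.17 ± 0.05 female over male), Ppp1r3c (-0.25 ± 0.09), Pygb (-0.11 ± 0.05) and Pdk1 (-0.09 ± 0.04). Of all genes tested, 19.3% passed that threshold in edgeR. After adjustment DESeq2 called 1 member and limma-trend 0, beside 669 and 505 of all genes. The response to the genotype differed between the sexes for 0 members (0 also at an unadjusted p under 0.05, by each of the 3 tools), and the response to Ang II for 0 members (2 at an unadjusted p under 0.05 by each tool, Pgam1 and Hk1), where edgeR called 0% of all genes in either comparison and DESeq2 called 2 genes in each. At an unadjusted p under 0.05 in edgeR, 3.56% of all genes passed for the genotype response and 4.22% for the Ang II response.

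Around these members, 95 other genes of glucose use were listed, and 76 were tested. Of the 76, 25 fell and 17 rose in Tg against WT saline hearts, 55.3% beside 40.6% of all genes tested. Under Ang II 20 were lower and 16 higher in Tg than in WT hearts, 47.4% beside 32.8% of all genes. Ang II lowered 10 and raised 6 in WT hearts, 21.1% beside 18.6%, and lowered 4 and raised 6 in Tg hearts, 13.2% beside 8.93%. The counts of single lists below, all under saline, stand beside that same 40.6% of all genes, 20.4% higher and 20.2% lower. Sord, sorbitol dehydrogenase of the polyol route, had 22.3, 27.0 and 32.1 scaled FPKM in Tg saline hearts against 49.0, 55.9 and 58.9 in WT saline hearts, without overlap, and fell (-1.06 ± 0.08, adjusted p = 1.57e-14). Akr1b3, the aldose reductase before it on that route, fell less (-0.10 ± 0.03, adjusted p = 0.0119). Galm, which interconverts the anomers of hexoses, was lower in Tg saline hearts (-0.57 ± 0.08). Pfkfb3, a kinase-biased relative of Pfkfb1, was lower in Tg hearts under Ang II (-0.43 ± 0.13, adjusted p = 0.00827) and not called under saline (-0.24 ± 0.14, adjusted p = 0.172).

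At the pyruvate step, 6 of 9 other genes tested fell in Tg saline hearts and 1 rose, 77.8% beside 40.6% of all genes. Pdp2, the other reactivating phosphatase, had 2.14, 2.85 and 3.42 scaled FPKM in Tg saline against 3.84, 5.62 and 6.90 in WT saline hearts, without overlap (-1.01 ± 0.13, adjusted p = 3.49e-08). Dld, the third enzyme of the complex, differed by -0.36 ± 0.04 (adjusted p = 1.6e-09) and Mpc2, a subunit of the mitochondrial pyruvate carrier, by -0.32 ± 0.07 (adjusted p = 9.94e-05). Pdk3, a further inactivating kinase, rose by 0.79 ± 0.14 (adjusted p = 1.84e-05). Its level was low, with medians of 0.94 scaled FPKM in Tg saline and 0.52 in WT saline hearts. Pdk4, the most abundant of these kinases, had a mean of 166 scaled FPKM over all libraries, above Pdk2 at 90.5. It had 57.3, 135 and 314 in Tg saline against 39.4, 127 and 241 in WT saline hearts, which overlapped. Of 3 genes of lactate handling, Ldhd, a mitochondrial dehydrogenase of D-lactate, fell (-0.46 ± 0.07), as did Bsg, a chaperone of monocarboxylate carriers (-0.21 ± 0.04), and Slc16a1, such a carrier, rose (0.25 ± 0.07).

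Of 16 other glycogen genes tested, 4 rose and 4 fell in Tg saline hearts, 50% beside 40.6% of all genes. Stbd1, which tethers glycogen to membranes, rose by 0.76 ± 0.13 (adjusted p = 5.75e-06), Nhlrc1, or malin, a ubiquitin ligase of glycogen metabolism, by 0.45 ± 0.08 (adjusted p = 1.39e-05), and Gbe1, the branching enzyme, by 0.22 ± 0.06 (adjusted p = 0.00359). Pgm1, phosphoglucomutase, fell (-0.23 ± 0.05, adjusted p = 1.46e-04). Of 8 pentose phosphate genes 3 rose and 1 fell, also 50%, and Pgd (0.30 ± 0.05), G6pdx (0.34 ± 0.07) and H6pd (0.27 ± 0.07), which make NADPH, were higher, whereas Tkt, transketolase, was not called (-0.06 ± 0.06). Among the insulin and transport signalling genes, 4 of 7 fell and 1, Irs2 (0.43 ± 0.17), rose, 71.4% in all. Those that fell were Tbc1d4, which holds GLUT4 vesicles inside the cell until insulin acts (-0.44 ± 0.08), its relative Tbc1d1 (-0.34 ± 0.07), the kinase Akt2 (-0.14 ± 0.05) and Pik3r1, a subunit of the insulin-signalling lipid kinase (-0.47 ± 0.16). Of 2 other transporters tested, Slc2a12 was lower (-0.53 ± 0.14) and Slc2a8 not called (0.00 ± 0.07).

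Of 17 regulators of glucose use, 3 rose and 3 fell in Tg saline hearts, 35.3% where 40.6% of all genes were called, so this count is near that of all genes. Myc, a transcription factor known to induce glycolytic genes, had 1.66, 2.47 and 3.6 scaled FPKM in Tg saline against 0.863, 1.14 and 1.53 in WT saline hearts, without overlap, and rose by 1.13 ± 0.15 (adjusted p = 7.75e-08). Prkab2 (0.60 ± 0.08) and Prkag2 (0.41 ± 0.07), subunits of the energy sensor AMPK, were higher, and Mef2a, a muscle transcription factor, was lower (-0.29 ± 0.05). With Ang II in WT hearts, Myc differed by 0.23 ± 0.15 (adjusted p = 0.275), Prkag2 by 0.27 ± 0.07 (adjusted p = 0.00432) and Mef2a by -0.19 ± 0.05 (adjusted p = 0.00396). The hexosamine genes gave 1 call of 5 (20%) under saline, Gfpt2 (0.40 ± 0.14, adjusted p = 0.0208). Not called were Uap1, which forms the donor sugar of that route (-0.03 ± 0.04), and Ogt (-0.02 ± 0.05) and Oga (-0.05 ± 0.04), which add it to and remove it from proteins.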

How the data were processed

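The samples were left ventricles of 50 mice, 1 library each. The authors deposited 1 table with a read count and an FPKM value per gene and library. Per the submitters' processing notes the tools were cutadapt 1.9, FastQC, HISAT2 2.0.4 and StringTie 1.3.4d, and the genome build used for alignment is not given in the sources used here. Gene positions in the deposited table were identical to GENCODE M21 (GRCm38) for 31 of the 36 members. Per the labels' protocols the library kit keeps the strand, but the strand setting of the counting is not given in the sources used here. The FPKM of library 965 as deposited were computed with a depth of 1.21 times its total count, against 0.989 to 1.01 times in the others, so levels were divided by median-of-ratios factors taken from the FPKM themselves (0.776 to 1.14).

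Counts were tested with the quasi-likelihood test of edgeR 4.0.16 in R 4.3.3, with median-of-ratios scaling, 1 mean for each of the 8 cells of genotype, treatment and sex, and both sexes weighted equally. Genes entered where 5 or more libraries reached an FPKM of 1, which left 11628 of 35717, and p-values were adjusted by the procedure of Benjamini and Hochberg over them, with a threshold of 0.05. The labels do not say which mice shared a litter or a cage, and p-values measure the spread between these libraries. DESeq2 1.42.0 and limma 3.58.1, other scalings, no filter, clusters of library numbers as a term, and left-out libraries were the alternatives. The edgeR code was tested on simulated data. In each comparison and step, levels are given for up to 4 called members with the largest change, and in each list of other pathway genes up to 4 genes with the smallest p are named, while Irs2 and Pdk4 were named after their values were seen. Some genes of those lists are not reported here. The members and lists were chosen with earlier results of these data known. Promoters came from RefSeq on GRCm38.p6. Total counts were 53877439 to 91579342 per library.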

Additional observations from a re-analysis of the deposited data

How the results depend on the processing

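No member changed direction while called under any of the 14 alternatives. All 14 kept 16 of 21 calls for Tg against WT under saline, 17 of 23 under Ang II, 7 of 14 for Ang II in WT hearts, 4 of 10 for Ang II in Tg hearts and 9 of 16 for Tg saline against WT Ang II. For Ang II in Tg hearts, 5 members were called with no filter on low values and 6 without library 715, against 10. For female against male, where 0 members were called, no scaling beyond library size gave 4, and each of the following gave 1: library size without mitochondrial transcripts, DESeq2, and leaving out libraries 329 and 847, library 329 alone or library 715. Calls of all genes in the fits that gave 1 ran from 444 (without libraries 329 and 847) to 669 (DESeq2). Without libraries 329 and 847, 12 members were called for Ang II in WT hearts, 9 for Ang II in Tg hearts and 17 for Tg saline against WT Ang II. Of all genes, 1766, 916 and 3770 were called there.

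No scaling beyond library size moved the median log2 fold change of all genes by 0.137 for Tg against WT under saline, and split the calls of all genes 4868 higher to 919 lower in place of 2376 to 2344. There 12 members were higher and 11 lower, against 6 and 15, and the calls of Pgam2, Pkm, Pdha1 and Pdhb were lost. The same scaling gave 1987 higher and 477 lower for Ang II in WT hearts in place of 1129 and 1031, 3372 and 927 for Tg against WT under Ang II in place of 1905 and 1909, and 2985 and 897 for Tg saline against WT Ang II in place of 1801 and 1800. With library size without mitochondrial transcripts these splits were 3117 and 1650 under saline, 2402 and 1403 under Ang II and 2361 and 1299 for Tg saline against WT Ang II. Counts of all genes moved by over 1.5 times for Ang II in Tg hearts, with 598 with library-number clusters as a term, 634 with no filter and 656 without library 715, against 1038. For the difference between the genotypes in the response to Ang II, where 5 of all genes were called, DESeq2 called 40, each of both library-size scalings 8, limma-trend 3, no filter 2 and library-number clusters 0, and leaving libraries out gave 11 without 715, 2 without 965, and 3 without 332, without 232 and 332 or without 329 and 847. For female against male no scaling gave 1223 against 514, and library-number clusters 321. The causes were not tested. No paired analysis was possible because every library number occurs once.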
